A study of Mus musculus with 8 samples.

Results

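The Hox genes are the homeobox transcription factor genes of the Hoxa, Hoxb, Hoxc and Hoxd clusters. They were taken here as every protein-coding gene of the deposited table whose name is Hox, a cluster letter and a paralog number. This gave 40 of the 54532 genes, with 39 names, because 2 identifiers are both named Hoxd4. The clusters held 11 Hoxa, 10 Hoxb, 9 Hoxc and 10 Hoxd genes. RNA was sequenced from embryonic fibroblasts of wild-type (WT) mice after 4 days in 1 of 4 media, with 2 libraries a medium. CFAE+8+MSC medium held CHIR99021, which blocks the kinase GSK-3, Forskolin, which raises cAMP, AM580, a retinoid that acts through the receptor RAR alpha, the DOT1L inhibitor labelled EPZ04777, A-83-01 and MSC2530818, which blocks the kinases CDK8 and CDK19. CFAE+6 medium held CHIR99021, Forskolin, AM580, EPZ04777 and E-616452. CFAE+8 medium was CFAE+8+MSC without MSC2530818, and MEF medium, the fibroblast medium, held none of these compounds. The TGF-beta type I receptor is the target of both A-83-01 and E-616452. The labels give no doses, so it is not known whether these inhibitors were at matched doses. Separate cultures are not named for the libraries of a medium either, and p-values therefore measure the spread between libraries alone, which may be technical. No cocktail lacked AM580 or EPZ04777, so their effects cannot be told apart from those of the other compounds.

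Hox proteins give cells of the embryo their address along the head-to-tail axis, and fibroblasts keep much of that address in culture as a lasting pattern of Hox expression. Within a cluster the genes lie in the order in which they are used along the body, low paralog numbers towards the head (anterior) and high ones towards the tail (posterior). Retinoic acid switches on anterior Hox genes in the embryo, Polycomb complexes keep silent Hox genes off, and MLL proteins with the histone methyltransferase DOT1L keep active ones on, a relation known best from leukaemia with high Hoxa expression.

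Depth was even, at 10958430 to 11913143 counts a library. In a single library 3 counts were worth 0.254 to 0.285 CPM, the scale used below, on which counts are divided by library size after TMM correction. Mitochondrial transcripts took 1.96 to 2.21% of counts in the cocktail libraries, against 1.21 to 1.24% in the MEF libraries. All changes below are log2 fold changes ± SE from 1 fit of edgeR's quasi-likelihood test to the 15470 genes with enough counts, and a gene was called higher or lower at a Benjamini-Hochberg adjusted p under 0.05. In bulk RNA such as this, fewer cells of a type and less RNA per cell cannot be told apart.

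Of the 40 Hox genes, 32 had enough counts to be tested. The other 8 had at most 23 counts over the 2 libraries of any medium. They were Hoxb1, Hoxd1 and both Hoxd4 genes at the anterior and central positions, and Hoxa13, Hoxb13, Hoxc12 and Hoxd12 at the posterior ends. Hoxd1, an anterior gene that acts in pain-sensing neurons, held 23, 11 and 11 counts over CFAE+8+MSC, CFAE+6 and CFAE+8, against 3 over MEF. Hoxb1, which specifies a segment of the hindbrain and responds to retinoic acid there, held 3 counts over CFAE+6 and 0 over each of CFAE+8+MSC, CFAE+8 and MEF. Hoxc12 held 8, 4 and 1 counts over CFAE+8+MSC, CFAE+6 and CFAE+8, against 16 over MEF. Hoxa13, a gene of the limb tip and hindgut, held 7, 15 and 6 counts over the same cocktails, against 14 over MEF. The Hoxd4 gene that GENCODE M21 does not list held 4, 1 and 8 counts over the cocktails and 16 over MEF, and the other Hoxd4 gene at most 1 in any medium. Hoxb13 stayed at or under 3 counts in every medium, and Hoxd12 held 0, 1 and 0 over the cocktails and 9 over MEF.

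Per length, the most abundant Hox transcript was that of Hoxb9, a gene of the thoracic region. It stood at 40.8 ± 0.593 RPKM in CFAE+8+MSC, 40.1 ± 0.119 in CFAE+6, 51.98 ± 0.260 in CFAE+8 and 30.6 ± 0.740 in MEF (mean ± SD, n = 2 in each). In MEF it was followed by Hoxc6 at 27.8 ± 2.59 RPKM, Hoxc8 at 18.5 ± 0.799, Hoxc10 at 13.97 ± 0.742, Hoxa5 at 13.7 ± 0.557 and Hoxa7 at 12.7 ± 0.192, of which Hoxc10 and Hoxa5 did not differ beyond their spread. In the cocktails the gene ranked after Hoxb9 was Hoxc5, at 30.7 ± 1.01 RPKM in CFAE+8+MSC, 25.7 ± 1.51 in CFAE+6 and 26.3 ± 1.18 in CFAE+8, against 6.99 ± 0.352 and rank 14 in MEF. Hoxc6 came next in the cocktails, and in CFAE+8+MSC its level was within 1 SD of that of Hoxc5. Hoxb4 held rank 4 in each cocktail and rank 9 in MEF. Hoxa5 stood at rank 13, 12 and 12 in CFAE+8+MSC, CFAE+6 and CFAE+8, against 5 in MEF, and Hoxa7 at 17, 16 and 16, against 6. By CPM, without regard to length, the 4 highest genes (Hoxb9, Hoxc5, Hoxc6 and Hoxb4) made up 51.7% of Hox CPM in CFAE+8+MSC, 48.6% in CFAE+6 and 48.1% in CFAE+8, and the 4 of MEF (Hoxb9, Hoxc6, Hoxc8 and Hoxa7) made up 41.4%. The Hoxd cluster was the least expressed, and Hoxd8 was the highest of it in every medium, at 6.32 ± 0.0567, 6.89 ± 0.931 and 10.1 ± 0.726 RPKM in CFAE+8+MSC, CFAE+6 and CFAE+8 and 7.40 ± 0.649 in MEF. The most abundant genes of every medium thus belonged to paralogs 4 to 10, and those of paralogs 11 to 13 other than Hoxa11 and Hoxc13 stayed under 4 CPM in every library.

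**Figure D1:**
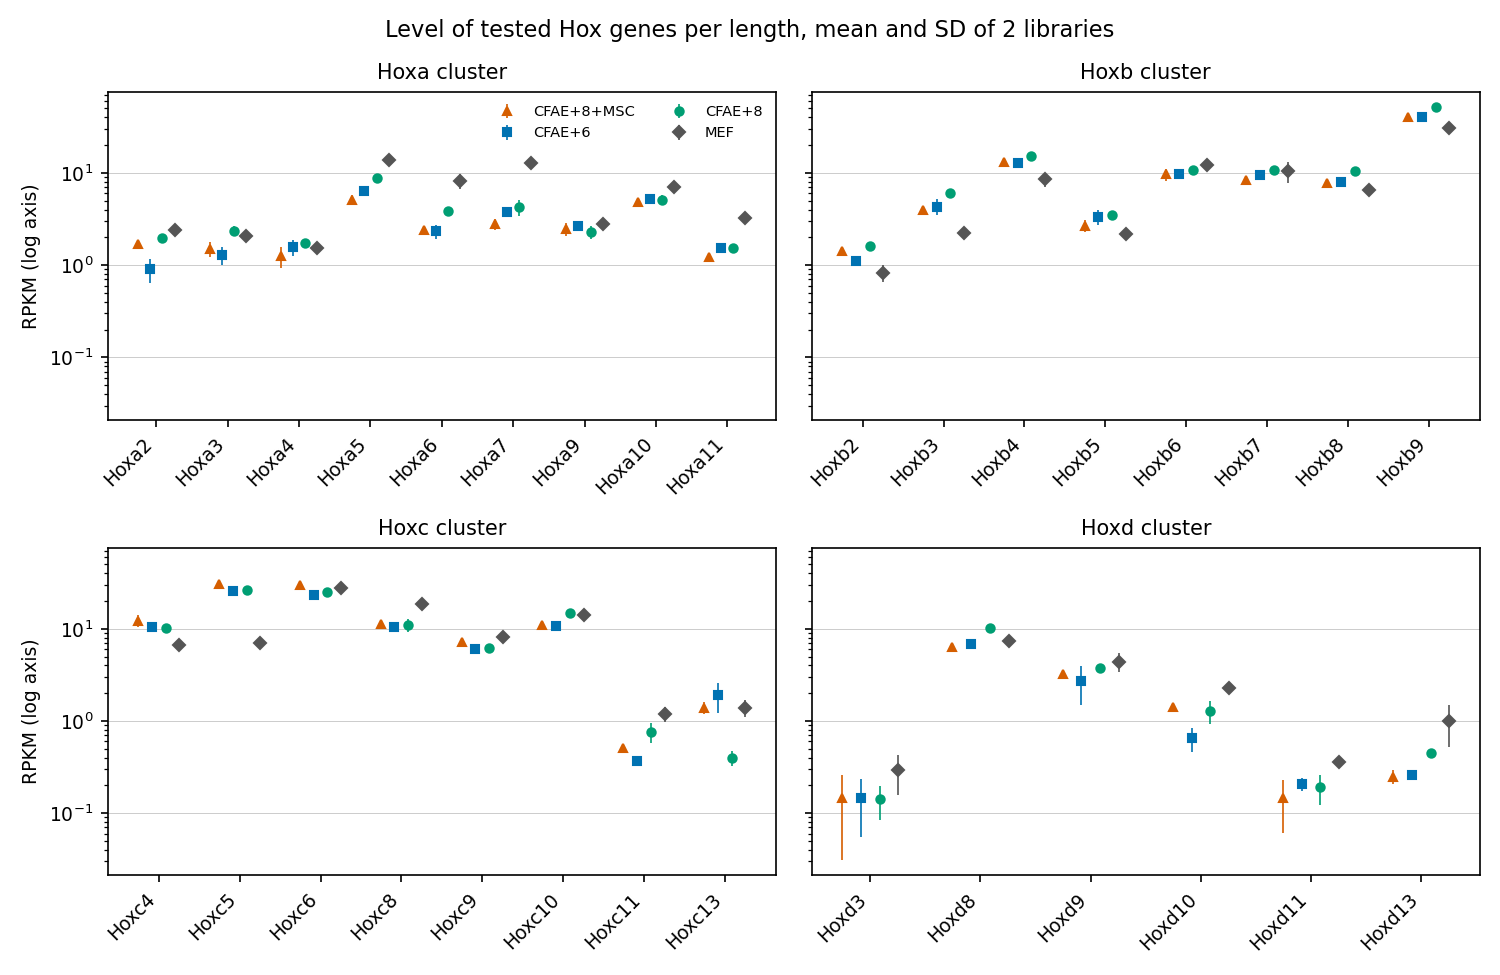
Level of tested Hox genes per length (RPKM, log axis), by cluster and in paralog order, in the 4 media. Points are means of 2 libraries and bars are SD. Hoxb9 is the highest gene in every medium at 30.6 to 52.0 RPKM, and the grey MEF points lie above the cocktail points for most Hoxa genes and below them for Hoxb3, Hoxb4, Hoxb9, Hoxc4 and Hoxc5.

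The balance between clusters differed between the cocktails and MEF. Summed Hoxa CPM was 67.4 and 68.6 in the CFAE+8+MSC libraries, 74.2 and 74.4 in CFAE+6 and 90.1 and 87.1 in CFAE+8, against 137 and 140 in MEF. Every cocktail library lay below both MEF libraries. Summed Hoxb CPM averaged 220 ± 2.62 in CFAE+8+MSC, 223 ± 5.31 in CFAE+6 and 280 ± 1.15 in CFAE+8, against 177 ± 8.13 in MEF, and here every cocktail library lay above both MEF libraries. The ratio of summed Hoxb to summed Hoxa was 3.24 in both CFAE+8+MSC libraries, 3.05 and 2.94 in CFAE+6 and 3.11 and 3.20 in CFAE+8, against 1.22 and 1.33 in MEF. The Hoxc cluster summed to 272 ± 9.24 CPM in CFAE+8+MSC, 232 ± 8.00 in CFAE+6, 244 ± 4.00 in CFAE+8 and 211 ± 13.1 in MEF, and the Hoxd cluster to 29.9 ± 1.27, 28.6 ± 4.69, 41.3 ± 1.81 and 40.4 ± 1.64. All Hox genes together came to 591 ± 7.07 CPM in CFAE+8+MSC, 558 ± 7.49 in CFAE+6 and 654 ± 1.05 in CFAE+8, against 567 ± 17.5 in MEF. On this TMM-corrected scale, the total in CFAE+6 therefore lay within the spread of MEF while its composition did not. No test was run on these sums.

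**Figure D2:**
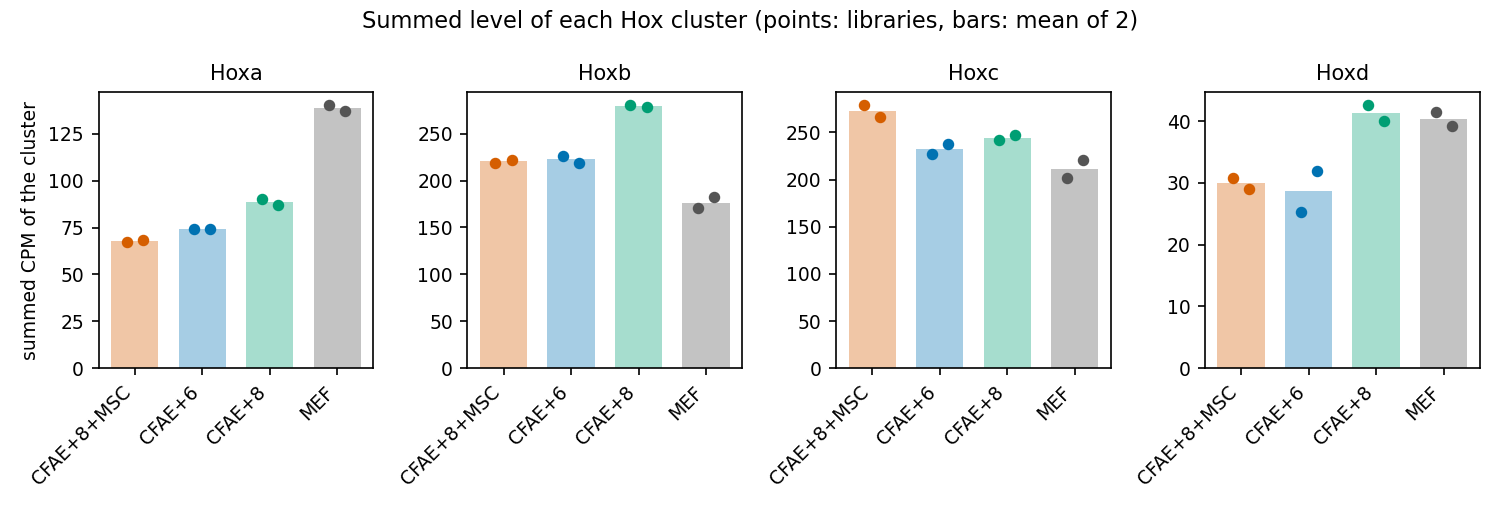
Summed CPM of the genes of each Hox cluster (vertical axes, each from 0) in the 4 media. Points are single libraries and bars are means of 2. Hoxa is lower in each cocktail than in MEF (68.0, 74.3 and 88.6 against 139 CPM) and Hoxb is higher (220, 223 and 280 against 177 CPM).

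The comparison of CFAE+8 with MEF asks what the cocktail with A-83-01 had done by day 4. In CFAE+8, 9 Hox genes were higher and 10 lower, and 13 of the 32 were not called. Of all genes tested, 62.0% were called in this comparison (30.8% higher and 31.3% lower), so the share of Hox genes called, 59.4%, was near the background. The direction split by cluster: 6 of 8 Hoxb genes were higher, while 5 of 10 Hoxa genes were lower. Even at an unadjusted p under 0.05 in edgeR, the lower genes held no Hoxb gene and the higher genes no Hoxa gene. The Hoxc cluster had 2 of 8 higher and 3 lower, and the Hoxd cluster 1 of 6 higher and 2 lower. Median log2 fold changes were 0.72 for Hoxb, -0.39 for Hoxa, -0.29 for Hoxc and -0.86 for Hoxd, against 0.01 over all genes. The libraries did not overlap for 28 Hox genes, 11 above and 17 below MEF, where 80.0% of all genes did not overlap. A change of at least 2-fold was called for 7 Hox genes, or 21.9%, against 24.9% of all genes.

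The promoter windows of 4 of these genes are printed because they stand for both directions and 3 clusters: Hoxb4 and Hoxc4 were higher in CFAE+8 than in MEF, and Hoxa5 and Hoxa7 were lower. Each runs from 250 bases before to 50 after the RefSeq start on GRCm38.p6, the assembly behind mm10, and reads 5′ to 3′ on the strand of the gene. Capitals mark AGGTCA on either strand, the hexamer that retinoic acid receptors and other nuclear receptors bind. The RefSeq starts of Hoxc4 and Hoxa7 lie inside the gene spans of the deposited table.
Hoxb4, chr11:96318017-96318316, plus strand: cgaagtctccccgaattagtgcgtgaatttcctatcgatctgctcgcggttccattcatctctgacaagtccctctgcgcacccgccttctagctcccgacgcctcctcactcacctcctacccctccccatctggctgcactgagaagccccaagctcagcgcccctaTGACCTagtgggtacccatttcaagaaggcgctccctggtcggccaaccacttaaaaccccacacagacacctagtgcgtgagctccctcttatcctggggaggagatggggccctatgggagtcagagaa
Hoxc4, chr15:103034145-103034444, plus strand: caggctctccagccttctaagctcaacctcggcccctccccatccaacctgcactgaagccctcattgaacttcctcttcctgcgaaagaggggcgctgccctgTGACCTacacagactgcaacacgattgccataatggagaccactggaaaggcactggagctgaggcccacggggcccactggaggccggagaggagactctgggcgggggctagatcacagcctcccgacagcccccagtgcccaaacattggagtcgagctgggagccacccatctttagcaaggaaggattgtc
Hoxa5, chr6:52204538-52204837, minus strand: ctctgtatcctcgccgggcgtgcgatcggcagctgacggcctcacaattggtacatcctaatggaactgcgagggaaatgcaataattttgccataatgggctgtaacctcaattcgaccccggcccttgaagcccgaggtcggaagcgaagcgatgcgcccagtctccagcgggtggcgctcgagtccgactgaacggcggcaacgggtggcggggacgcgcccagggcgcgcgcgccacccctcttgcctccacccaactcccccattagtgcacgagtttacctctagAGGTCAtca
Hoxa7, chr6:52218524-52218823, minus strand: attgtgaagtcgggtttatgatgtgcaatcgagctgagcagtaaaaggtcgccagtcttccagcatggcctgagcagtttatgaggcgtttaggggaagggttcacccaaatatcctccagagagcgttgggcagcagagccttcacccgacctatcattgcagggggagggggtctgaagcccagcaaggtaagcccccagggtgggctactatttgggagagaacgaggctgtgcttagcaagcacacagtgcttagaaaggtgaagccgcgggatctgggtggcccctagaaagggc
The hexamer stands once in Hoxb4 at base 170 of the window, once in Hoxc4 at base 105 and once in Hoxa5 at base 292, and these letters are not in the window of Hoxa7. RefSeq windows were matched for 22 of the 39 Hox names, with 24 windows. Of these, 7 held AGGTCA (29.2%; Hoxa5, Hoxb4, Hoxc4, Hoxd3, Hoxd4, Hoxd8 and Hoxd10), against 16.3% of all 32851 windows. In CFAE+8 against MEF, the members with the hexamer included Hoxb4, Hoxc4 and Hoxd8, which rose, and Hoxa5 and Hoxd10, which fell. A direct repeat of the looser retinoid hexamer (A or G, then G, G or T, T, C and A, which overlaps AGGTCA), read on both strands, was in 0 Hox windows with a spacer of 5 bases and in 0 with a spacer of 2, against 0.0974% and 0.268% of all windows. On both strands, the cAMP response element TGACGTCA was in 0 Hox windows and 1.79% of all, and the TCF/LEF site CTTTGAT was in 1 Hox window, that of Hoxd8, and 3.73% of all. At rates as low as those of the repeats and these sites, 24 windows cannot show whether Hox genes lack them. Sequence outside the windows was not searched. The median number of CpG pairs per window was 14.5 in the Hox set and 7 over all windows.

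Hoxc5, a paralog of the neck and upper trunk (ENSMUSG00000022485, mm10 chromosome 15, 102967443 to 103017429, plus strand), had the largest rise. It was at 96.9 and 92.5 CPM in the CFAE+8+MSC libraries, 76.1 and 82.7 in CFAE+6 and 78.8 and 83.97 in CFAE+8, against 20.8 and 22.3 in MEF. The lowest cocktail library was thus over 3 times the highest MEF library, and the groups did not overlap. The log2 fold change in CFAE+8 against MEF was 1.91 ± 0.08 (adjusted p = 4.0e-18). The record of Hoxc5 begins within Hoxc10 and runs across Hoxc9, Hoxc8 and Hoxc6, and 5.37% of its exon length is shared with Hoxc10 on the same strand. Hoxc10 itself, a gene of the lumbar region and hindlimb, was not called, at 26.4 and 30.2 CPM in CFAE+8 against 25.7 and 27.7 in MEF (log2 fold change 0.08 ± 0.11, 95% interval -0.14 to 0.31). Hoxc4, the neighbour of Hoxc5 at the anterior end of the cluster, also rose, at 25.2 and 27.6 CPM in CFAE+8 against 16.7 and 17.3 in MEF (0.63 ± 0.12, adjusted p = 3.9e-05). Hoxc6, the most abundant Hoxc gene in MEF, was at 58.3 and 61.3 CPM in CFAE+8 and 62.5 and 71.4 in MEF and was not called (adjusted p = 0.062). Hoxc8, which patterns the lower thorax (ENSMUSG00000001657), fell. It had 31.7 and 31.5 CPM in CFAE+8+MSC, 30.1 and 29.3 in CFAE+6 and 34.4 and 27.4 in CFAE+8, against 50.8 and 54.04 in MEF (-0.76 ± 0.10, adjusted p = 6.6e-08), and every cocktail library lay below both MEF libraries. Hoxc9 fell as well (-0.41 ± 0.13, adjusted p = 0.0073). In CFAE+8 against MEF, the rises within the Hoxc cluster were therefore at its anterior end (paralogs 4 and 5). The falls in that comparison lay among paralogs 8 to 13. In CFAE+6 against MEF Hoxc6 was called lower too (-0.27 ± 0.08, adjusted p = 0.0026). Hoxc13 was not called in CFAE+6 or CFAE+8+MSC against MEF.

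Hoxb3, which acts in the hindbrain and pharyngeal region (ENSMUSG00000048763, chromosome 11, 96323326 to 96347930, plus strand), had the largest rise of its cluster. It was at 17.1 and 16.6 CPM in CFAE+8+MSC, 20.9 and 15.7 in CFAE+6 and 26.6 and 24.4 in CFAE+8, against 10.3 and 8.61 in MEF (1.44 ± 0.15 in CFAE+8 against MEF, adjusted p = 1.2e-09). Hoxb2, a hindbrain gene (ENSMUSG00000075588), was at 4.85 and 4.97 CPM in CFAE+8+MSC, 3.88 and 3.77 in CFAE+6 and 5.46 and 5.77 in CFAE+8, against 2.47 and 3.30 in MEF (0.96 ± 0.26, adjusted p = 0.0019). Both values are uncertain: exons of Hoxb3os, on the opposite strand, cover 52.9% of Hoxb3 and 27.3% of Hoxb2, and reads of the kit used carry no strand. Hoxb3os was itself counted at 3.19 ± 1.25 CPM in CFAE+8 against 1.58 ± 0.355 in MEF (adjusted p = 0.027), and the part of shared reads in the Hoxb3 and Hoxb2 values was not tested. Hoxb4 (ENSMUSG00000038692, chromosome 11, 96318267 to 96321638, plus strand), known for expanding blood stem cells when overexpressed, shares no exon sequence with another gene. It had 34.4 and 33.3 CPM in CFAE+8+MSC, 34.03 and 31.9 in CFAE+6 and 39.1 and 40.1 in CFAE+8, against 19.3 and 24.3 in MEF (0.86 ± 0.11, adjusted p = 3.6e-08). The MEF libraries were both below every cocktail library.

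Hoxb9 (ENSMUSG00000020875, chromosome 11, 96271457 to 96276595, plus strand) had 104 and 106 CPM in CFAE+8+MSC, 103 and 103 in CFAE+6 and 134 and 133 in CFAE+8, against 77.5 and 80.2 in MEF. The 4 media fell into 3 levels, with CFAE+8 highest, the other cocktails between and MEF lowest. In CFAE+8 against MEF the log2 fold change was 0.76 ± 0.06 (adjusted p = 3.8e-12). Hoxb5, a gene of the enteric nervous system and trunk (ENSMUSG00000038700), was at 6.67 and 8.23 CPM in CFAE+8+MSC, 8.11 and 10.5 in CFAE+6 and 9.65 and 9.84 in CFAE+8, against 5.51 and 6.60 in MEF (0.68 ± 0.20, adjusted p = 0.0037). The highest MEF library of Hoxb5 lay close under the lowest CFAE+8+MSC library, and without MEF replicate 1 the adjusted p for CFAE+8 against MEF was 0.052. Hoxb8, whose product maintains myeloid progenitors in culture, rose at 27.7 and 27.6 CPM in CFAE+8 against 18.4 and 16.2 in MEF (0.68 ± 0.12, adjusted p = 1.0e-05). The 2 Hoxb genes that were not called lie between these: Hoxb6 had 21.00 and 20.8 CPM in CFAE+8 and 23.9 and 24.3 in MEF, and Hoxb7 had 16.6 and 16.96 CPM in CFAE+8 and 13.2 and 18.9 in MEF. The 95% intervals of their log2 fold changes were -0.45 to 0.04 and -0.25 to 0.37.

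Hoxa7 (ENSMUSG00000038236, chromosome 6, 52214491 to 52221854, minus strand), a target of MLL fusion proteins in leukaemia, had the largest fall among genes above 5 CPM. It was at 7.19 and 8.68 CPM in CFAE+8+MSC, 10.3 and 11.3 in CFAE+6 and 10.4 and 13.9 in CFAE+8, against 36.8 and 36.00 in MEF. The highest cocktail library was under 14 CPM and the lowest MEF library at 36.0 CPM (-1.58 ± 0.14 in CFAE+8 against MEF, adjusted p = 2.6e-11). Exons of Hoxaas3 on the opposite strand cover 20.4% of Hoxa7. Hoxaas3 averaged 1.53 ± 0.474 CPM in CFAE+8 and 1.77 ± 0.0461 in MEF, and the part of shared reads in the Hoxa7 values was not tested. Hoxa6 (ENSMUSG00000043219), the neighbour of Hoxa7 and free of overlap, had 2.17 and 1.99 CPM in CFAE+8+MSC, 2.29 and 1.80 in CFAE+6 and 3.33 and 3.39 in CFAE+8, against 6.27 and 8.15 in MEF (-1.10 ± 0.25, adjusted p = 4.0e-04). Hoxa5 (ENSMUSG00000038253, chromosome 6, 52201754 to 52204587, minus strand), needed for lung and cervical development, was at 10.5 and 8.77 CPM in CFAE+8+MSC, 13.05 and 10.96 in CFAE+6 and 16.7 and 16.1 in CFAE+8, against 24.99 and 26.5 in MEF (-0.65 ± 0.13, adjusted p = 8.3e-05). The 4 media stood in a row, with no overlap between any of them.

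Hoxa11, a gene of the forearm and uterus (ENSMUSG00000038210), had 2.86 and 2.71 CPM in CFAE+8+MSC, 3.35 and 3.59 in CFAE+6 and 3.59 and 3.39 in CFAE+8, against 6.84 and 7.88 in MEF (-1.08 ± 0.24, adjusted p = 2.6e-04). It is uncertain, since 35.0% of its exon length lies under Hoxa11os on the opposite strand. Hoxa10, a gene of the lumbar spine and uterus (ENSMUSG00000000938), was at 16.9 and 14.6 CPM in CFAE+8+MSC, 16.3 and 17.5 in CFAE+6 and 18.1 and 15.4 in CFAE+8, against 25.2 and 21.3 in MEF (-0.48 ± 0.13, adjusted p = 0.0026). Without CFAE+8 replicate 2 its adjusted p was 0.059, and without MEF replicate 1 it was 0.071. Hoxa9, which drives leukaemia together with its cofactor Meis1 and is a known DOT1L-dependent gene in MLL-rearranged leukaemia, was not called. It had 12.3 and 15.5 CPM in CFAE+8+MSC, 14.2 and 15.1 in CFAE+6 and 14.3 and 11.4 in CFAE+8, against 16.4 and 14.9 in MEF, with a 95% interval of -0.61 to 0.02 for CFAE+8 against MEF. The anterior Hoxa2 and Hoxa3 were not called either, with log2 fold changes of -0.30 ± 0.28 and 0.20 ± 0.17. In CFAE+8 against MEF, the falls in Hoxa thus lay among paralogs 5 to 11, and Hoxa2, Hoxa3 and Hoxa4 gave no call. Hoxa3 was lower than in MEF in CFAE+8+MSC (-0.47 ± 0.18, adjusted p = 0.026) and in CFAE+6 (-0.67 ± 0.18, adjusted p = 0.0023). Hoxa2 was lower than in MEF in CFAE+6.

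In the Hoxd cluster, Hoxd8 rose at 29.1 and 26.3 CPM in CFAE+8 against 21.6 and 19.1 in MEF (0.45 ± 0.12, adjusted p = 0.0019). Hoxd10, active in lumbar motor neurons, and Hoxd13, the gene of the digits, were lower at low levels. Hoxd10 had 2.82 and 1.87 CPM in CFAE+8 against 4.37 and 3.94 in MEF (adjusted p = 0.026), and Hoxd13 averaged 1.11 ± 0.125 CPM in CFAE+8 against 2.49 ± 1.19 in MEF (adjusted p = 0.027). Hoxd3, Hoxd9 and Hoxd11 were not called.

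**Figure D3:**
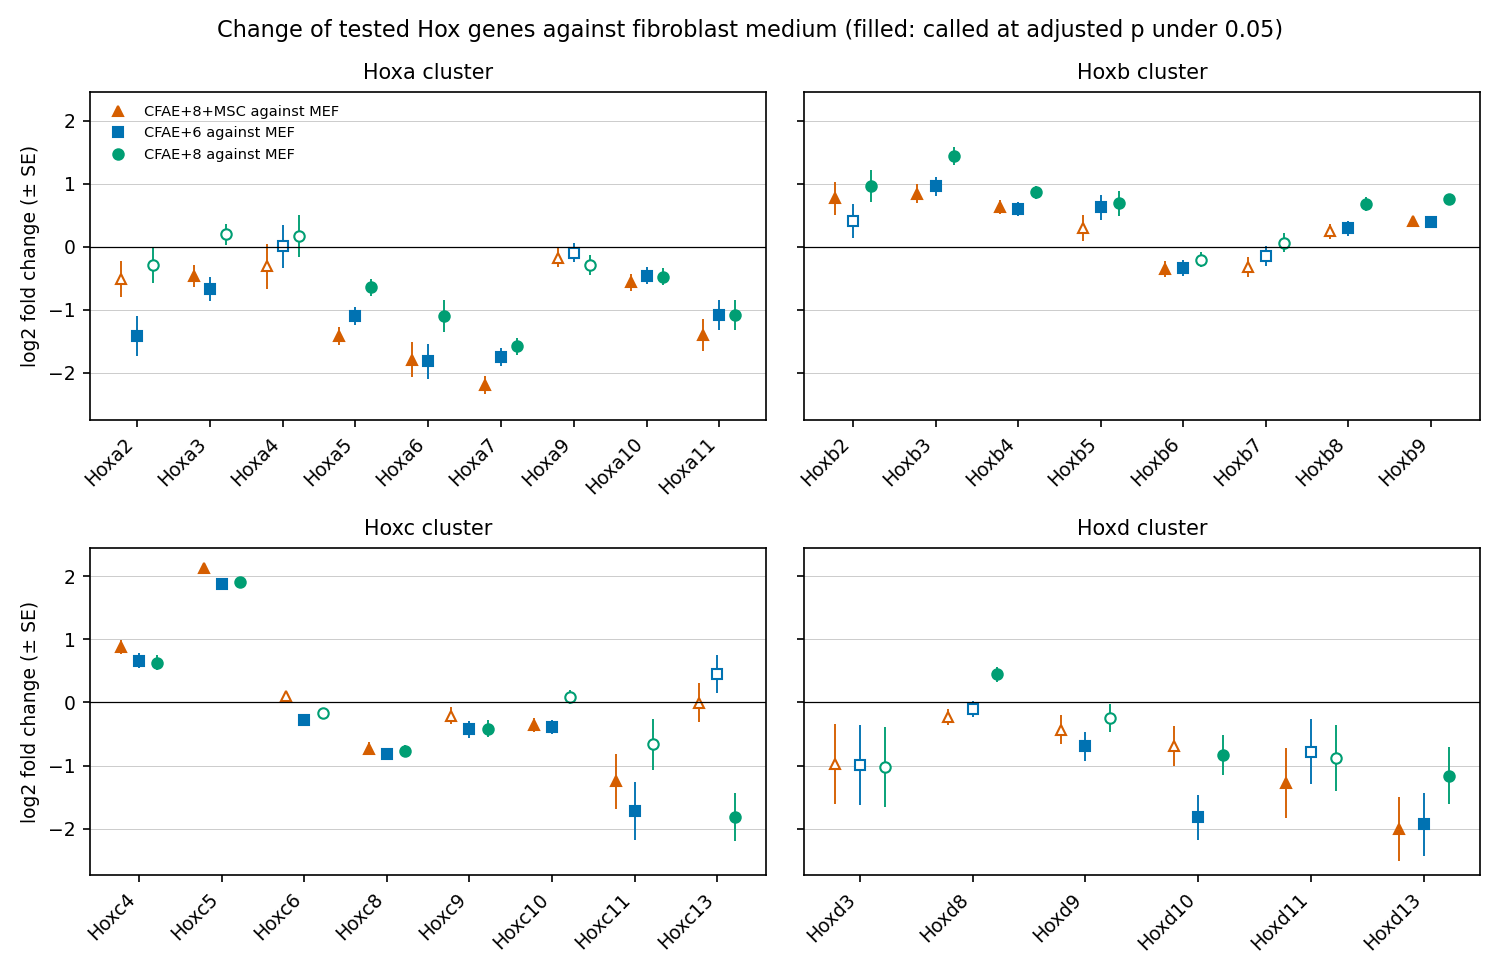
Log2 fold change of tested Hox genes in each cocktail against MEF (vertical axis, points ± SE), by cluster and in paralog order. Filled symbols were called at an adjusted p under 0.05, and the comparisons share the MEF libraries. Hoxc5 is highest at 1.88 to 2.13, Hoxa7 lies at -1.58 to -2.20, and the called Hoxb genes other than Hoxb6 lie above 0.

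**Figure D4:**
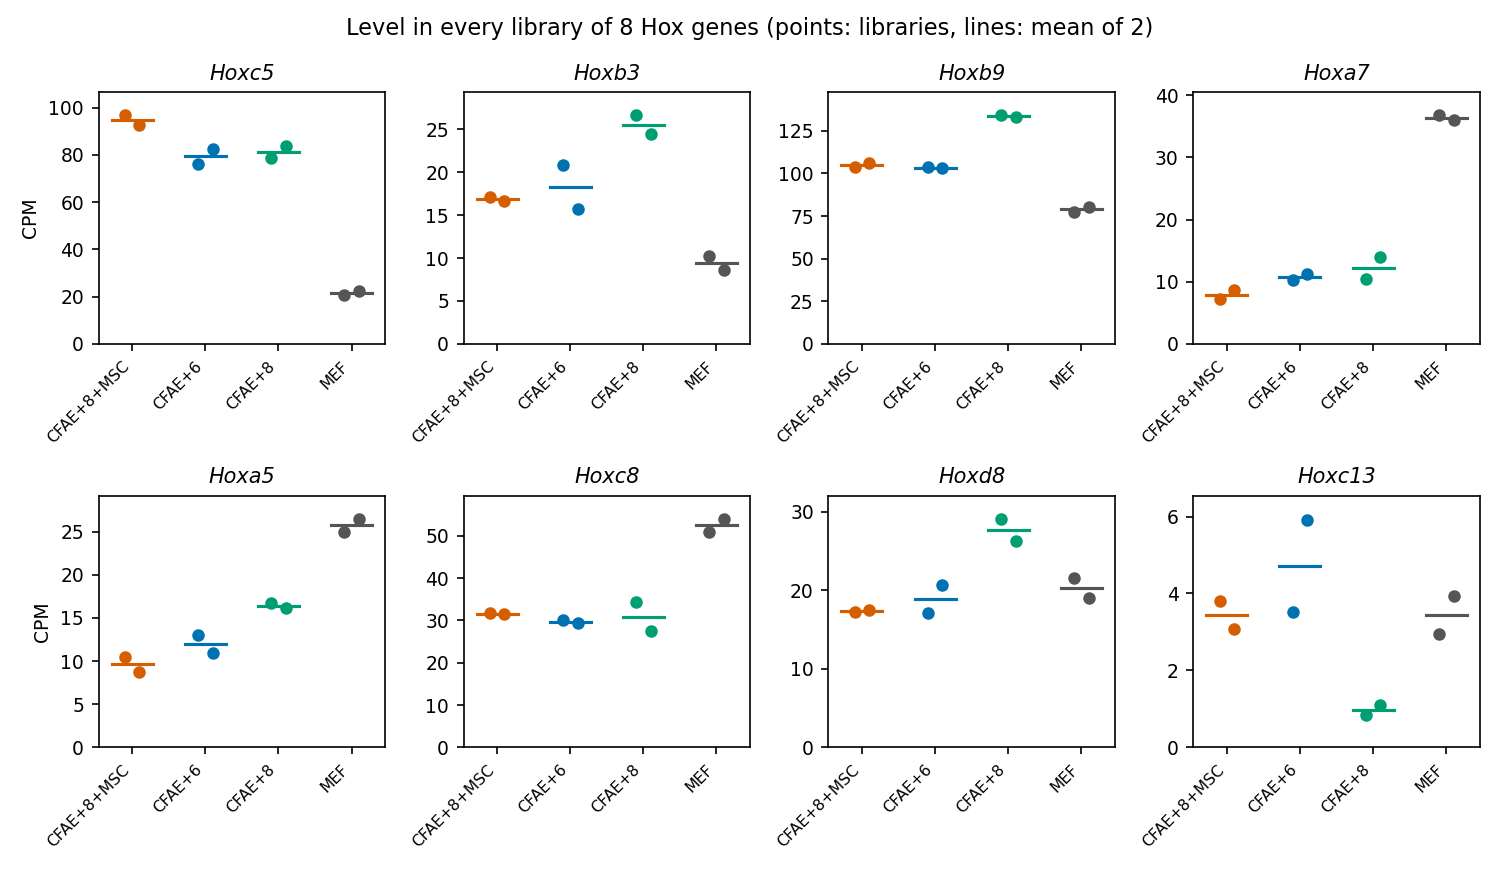
CPM of 8 Hox genes in every library (vertical axes, each from 0), with the 4 media side by side. Points are single libraries and lines are means of 2. Both MEF libraries lie below all cocktail libraries for Hoxc5, Hoxb3 and Hoxb9 and above them for Hoxa7, Hoxa5 and Hoxc8, and Hoxc13 is lowest in CFAE+8.

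The other cocktails were set against the same MEF libraries, so the 3 comparisons with MEF are not independent. In CFAE+8+MSC against MEF, 6 Hox genes were higher and 13 lower, where 64.1% of all genes were called (31.9% higher and 32.2% lower). In CFAE+6 against MEF, 7 were higher and 16 lower, where 63.1% of all genes were called (31.6% higher and 31.5% lower). The Hox share of lower calls was 40.6% in CFAE+8+MSC and 50% in CFAE+6. Without MEF replicate 2 the count in CFAE+8+MSC was 8 and not 13, and in CFAE+6 it was 13 to 17 with any 1 library left out. A change of at least 2-fold was called for 9 Hox genes in CFAE+8+MSC (26.7% of all genes) and for 9 in CFAE+6 (25.9% of all genes). Libraries did not overlap for 27 Hox genes in CFAE+8+MSC against MEF (8 above and 19 below, and 80.5% of all genes), and for 26 in CFAE+6 against MEF (8 above and 18 below, and 79.5% of all genes). Of 10 Hoxa genes, 7 were lower in CFAE+8+MSC and 7 in CFAE+6, and none was higher at an unadjusted p under 0.05 in edgeR, while Hoxb gave 4 higher and 1 lower of 8 in CFAE+8+MSC and 5 higher and 1 lower in CFAE+6. The lower Hoxb gene was Hoxb6 in both, at -0.35 ± 0.12 in CFAE+8+MSC (adjusted p = 0.014) and -0.34 ± 0.12 in CFAE+6 (adjusted p = 0.017). Hoxc gave 2 higher and 3 lower of 8 in CFAE+8+MSC and 2 higher and 5 lower in CFAE+6. Of 6 Hoxd genes, 2 were lower in CFAE+8+MSC and 3 in CFAE+6.

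The size of single changes against MEF can be read side by side. Hoxc5 changed by 2.13 ± 0.08 in CFAE+8+MSC, 1.88 ± 0.08 in CFAE+6 and 1.91 ± 0.08 in CFAE+8. Hoxa7 changed by -2.20 ± 0.15, -1.75 ± 0.14 and -1.58 ± 0.14 in the same order, Hoxa6 by -1.80 ± 0.28, -1.82 ± 0.28 and -1.10 ± 0.25, and Hoxa5 by -1.42 ± 0.14, -1.10 ± 0.14 and -0.65 ± 0.13. Hoxc8 changed by -0.73 ± 0.10, -0.82 ± 0.10 and -0.76 ± 0.10, values that lie within 1 SE of each other. Hoxb3 changed by 0.84 ± 0.16, 0.96 ± 0.15 and 1.44 ± 0.15. Hoxb2, which was called in CFAE+8+MSC and CFAE+8, was not called in CFAE+6 (0.40 ± 0.27, adjusted p = 0.20). Hoxd8 was not called in CFAE+8+MSC (-0.23 ± 0.13) or in CFAE+6 (-0.10 ± 0.13). In CFAE+6 the posterior Hoxd10 changed by -1.82 ± 0.36 and Hoxd13 by -1.93 ± 0.50 (adjusted p = 6.8e-05 and 0.0013), at mean levels of 1.18 and 0.651 CPM in CFAE+6 against 4.15 and 2.49 CPM in MEF. Hoxc11, a posterior gene under 3 CPM in every library, fell in CFAE+8+MSC (-1.25 ± 0.43, adjusted p = 0.013) and CFAE+6 (-1.71 ± 0.46, adjusted p = 0.0018) and was not called in CFAE+8 (-0.66 ± 0.40). Hoxa2, at 1.94 and 1.28 CPM in CFAE+6 against 4.18 and 4.40 in MEF, fell in CFAE+6 (-1.42 ± 0.32, adjusted p = 2.9e-04), and 15.0% of its exon length is shared with another gene.

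Genes with one paralog number come from one ancestral gene and have similar proteins. Of the 11 numbers with at least 2 tested genes, 3 had calls in both directions in CFAE+8 against MEF. In this comparison 62.0% of all genes were called. Number 5 had Hoxb5 and Hoxc5 higher and Hoxa5 lower, number 8 had Hoxb8 and Hoxd8 higher and Hoxc8 lower, and number 9 had Hoxb9 higher and Hoxc9 lower. Numbers 3 and 5 had calls in both directions in CFAE+8+MSC against MEF, and numbers 3, 5, 8 and 9 in CFAE+6 against MEF. Number 4 had Hoxb4 and Hoxc4 higher and no lower call in each of the 3 comparisons. Numbers 10, 11 and 13 had lower calls and no higher one in each of them. Hoxa10 and Hoxd10 were lower in CFAE+8, Hoxa10 and Hoxc10 in CFAE+8+MSC, and all 3 in CFAE+6. By position class in CFAE+8 against MEF, 2 of 6 anterior genes (paralogs 1 to 3) were higher and the other 4 were not called. Of 14 central genes (4 to 8), 6 were higher and 4 lower, and of 12 posterior genes (9 to 13), 1 was higher and 6 lower. Of all genes tested, 30.8% were higher and 31.3% lower. The anterior share higher (33.3%) and the central share lower (28.6%) were near that background. The central share higher was 42.9%, and the posterior shares were 8.33% higher and 50% lower. The posterior gene that rose was Hoxb9, the only tested Hoxb gene of its class, while the central class held 5. The classes therefore differ in cluster make-up as well as in position. Against MEF, CFAE+8+MSC had 2 anterior genes higher and 2 lower, 3 central genes higher and 5 lower, and 1 posterior gene higher and 6 lower. In CFAE+6 against MEF, 1 anterior gene was higher and 2 lower, 5 central genes higher and 6 lower, and 1 posterior gene higher and 8 lower. Of all genes tested, 31.9% were higher and 32.2% lower in CFAE+8+MSC against MEF, and 31.6% and 31.5% in CFAE+6 against MEF. Median log2 fold changes of the anterior class were -0.49 in CFAE+8+MSC and -0.76 in CFAE+6, and those of the posterior class -0.50 and -0.58. In CFAE+8 against MEF the median log2 fold change was -0.57 for the posterior class and -0.02 for the anterior class. These medians were also taken under other scalings, other filters and with 1 library left out, but not under the remaining settings. There the posterior median stayed between -0.85 and -0.49, and the anterior one changed sign with the setting.

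MSC2530818 was tested by setting CFAE+8+MSC against CFAE+8. Most Hox genes called were lower, and the higher ones were all of the Hoxc cluster. Of the 32 genes, 3 were higher and 8 lower, where 29.3% of all genes were called (15.6% higher and 13.8% lower). The Hox share of lower calls was 25.0%, but the count of 8 was 5 without CFAE+8+MSC replicate 1, 5 without CFAE+8 replicate 2, and 5 when genes with overlapping exons were left out. The count of 3 higher genes was 1 without CFAE+8 replicate 1. Libraries did not overlap for 24 Hox genes, 5 above and 19 below CFAE+8, where 63.2% of all genes did not overlap. Only 1 Hox gene, Hoxc13, was called at 2-fold or more, against 6.41% of all genes. Lower were Hoxa3, Hoxa5, Hoxa7, Hoxb3, Hoxb8, Hoxb9, Hoxc10 and Hoxd8. Hoxb9 changed by -0.35 ± 0.06 (adjusted p = 2.3e-05), Hoxb3 by -0.60 ± 0.13 (adjusted p = 9.8e-04) and Hoxa5 by -0.77 ± 0.15 (adjusted p = 1.7e-04), in the libraries given above. Hoxd8 (ENSMUSG00000027102, chromosome 2, 74704615 to 74707933, plus strand) had 17.2 and 17.5 CPM in CFAE+8+MSC, against 29.1 and 26.3 in CFAE+8 (-0.68 ± 0.12, adjusted p = 7.4e-05). Its CFAE+8+MSC libraries lay below both CFAE+8 and both MEF libraries.

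Among the higher genes, Hoxc6 (ENSMUSG00000001661, chromosome 15, 102998257 to 103011881, plus strand), a gene of the forelimb level, was at 72.6 and 71.2 CPM in CFAE+8+MSC, 55.4 and 55.5 in CFAE+6 and 58.3 and 61.3 in CFAE+8, with 62.5 and 71.4 in MEF (0.27 ± 0.07 in CFAE+8+MSC against CFAE+8, adjusted p = 0.0074). Hoxc5 was higher by a similar step (0.22 ± 0.07, adjusted p = 0.016). Neither rise was called without CFAE+8 replicate 1 (adjusted p = 0.087 and 0.17). Hoxc5 also lost its call without CFAE+8+MSC replicate 1 (adjusted p = 0.12) and in DESeq2 (adjusted p = 0.069). Neither they nor the fall of Hoxb9 passed a test against a 1.2-fold change. Hoxc13, which acts in hair follicles and is under 6 CPM everywhere, was looked at after its values were seen. It had 44 and 34 counts in CFAE+8+MSC, 40 and 69 in CFAE+6 and 10 and 13 in CFAE+8, and 31 and 43 in MEF. CFAE+8 was thus the low medium and the others overlapped, with log2 fold changes of 1.82 ± 0.38 in CFAE+8+MSC against CFAE+8 (adjusted p = 5.0e-04), 2.27 ± 0.37 in CFAE+6 against CFAE+8 (adjusted p = 1.8e-05) and -1.82 ± 0.39 in CFAE+8 against MEF (adjusted p = 1.7e-04).

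CFAE+6 was set against CFAE+8 to compare E-616452 with A-83-01 in the same cocktail. In CFAE+6, 1 Hox gene was higher and 9 were lower, where 26.6% of all genes were called (14.3% higher and 12.3% lower). The Hox share of lower calls was 28.1%. Libraries did not overlap for 19 Hox genes, 1 above and 18 below CFAE+8, where 60.9% of all genes did not overlap, and 2 Hox genes were called at 2-fold or more, against 5.57% of all genes. The count of 9 was 5 without CFAE+8 replicate 1 and 4 in DESeq2. The higher gene was Hoxc13, and the lower ones were Hoxa2, Hoxa3, Hoxa5, Hoxb3, Hoxb4, Hoxb8, Hoxb9, Hoxc10 and Hoxd8. Hoxb9 changed by -0.37 ± 0.06 (adjusted p = 1.1e-05), which did not pass the test against a 1.2-fold change. The change of Hoxc10, given below, did not pass that test either (adjusted p = 0.085). Hoxd8 had 17.1 and 20.7 CPM in CFAE+6, against 29.1 and 26.3 in CFAE+8 (-0.55 ± 0.12, adjusted p = 8.3e-04). Hoxa3 (ENSMUSG00000079560), a gene of thymus and parathyroid development, was at 7.79 and 10.1 CPM in CFAE+8+MSC and 6.52 and 8.99 in CFAE+6, against 12.97 and 15.4 in CFAE+8, with 12.6 and 12.1 in MEF (-0.87 ± 0.18 in CFAE+6 against CFAE+8, adjusted p = 4.5e-04). Other genes overlap 27.1% of its exon length, so its values are uncertain. Hoxc10 (ENSMUSG00000022484) had 20.01 and 21.7 CPM in CFAE+8+MSC and 19.4 and 21.4 in CFAE+6, against 26.4 and 30.2 in CFAE+8, with 25.7 and 27.7 in MEF (-0.47 ± 0.11 in CFAE+6 against CFAE+8, adjusted p = 0.0021). Without CFAE+8 replicate 2 that adjusted p was 0.068. The values for MSC2530818 and for E-616452 share the CFAE+8 libraries, and CFAE+8 against MEF shares them too, so these comparisons are not independent.

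The cocktails of MSC2530818 and of E-616452 were then compared directly. CFAE+8+MSC held MSC2530818 and A-83-01, and CFAE+6 held E-616452 in place of both. A difference between these media therefore cannot be assigned to MSC2530818 or to the exchange of inhibitors. In CFAE+8+MSC against CFAE+6, 2 of the 32 Hox genes were higher and 0 lower. The share of Hox genes called was 6.25%, where 10.5% of all genes were called (6.21% higher and 4.27% lower). The higher genes were Hoxc6 (0.38 ± 0.08, adjusted p = 9.9e-04) and Hoxc5 (0.25 ± 0.07, adjusted p = 0.014). Without CFAE+8+MSC replicate 1 or without CFAE+6 replicate 1 the count was 1, and in DESeq2 it was 1. No Hox gene was called at 2-fold or more, where 0.924% of all genes were. Libraries did not overlap for 13 Hox genes, 10 above and 3 below CFAE+6, where 49.9% of all genes did not overlap. For the 0 lower genes, edgeR had 1 at an unadjusted p under 0.05, Hoxa7, at 7.19 and 8.68 CPM in CFAE+8+MSC against 10.3 and 11.3 in CFAE+6 (-0.45 ± 0.17, adjusted p = 0.095), and DESeq2 called 0. For Hoxb9 the log2 fold change was 0.02 ± 0.06 with a 95% interval of -0.10 to 0.15, and for Hoxb4 it was 0.04 ± 0.10 with -0.17 to 0.24.

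**Figure D5:**
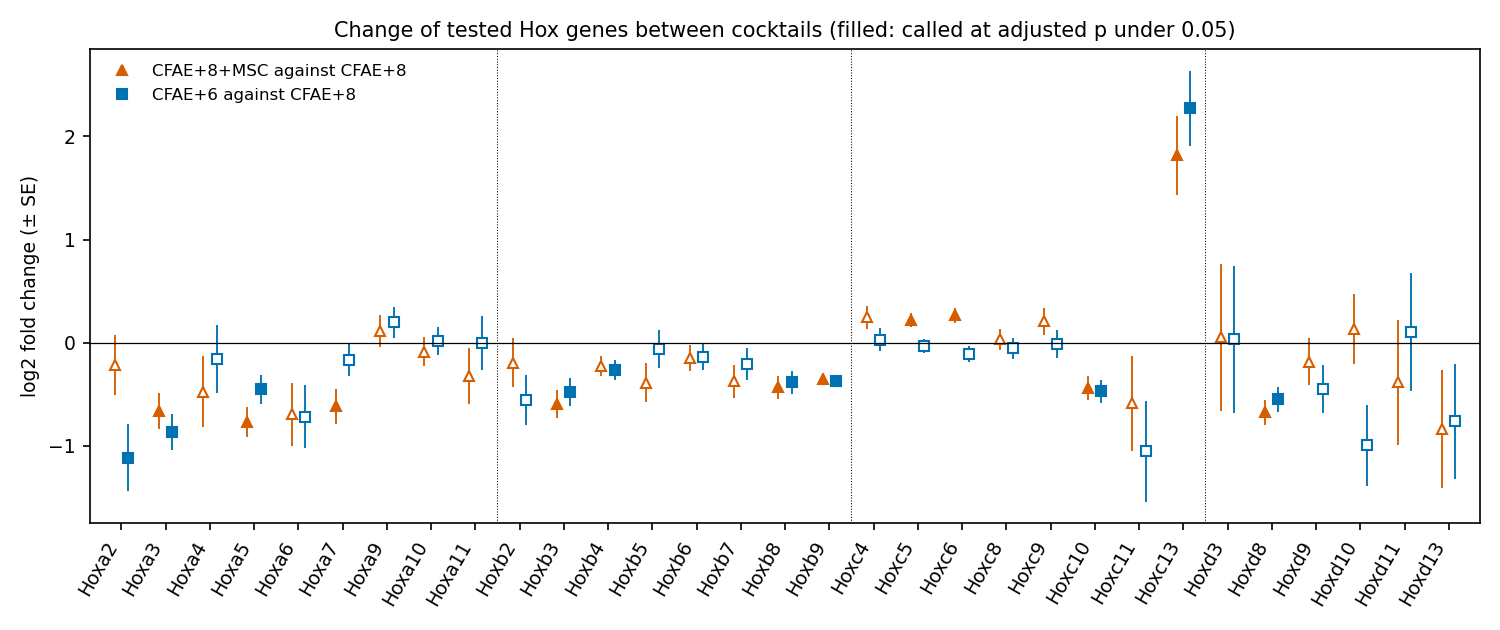
Log2 fold change of tested Hox genes in CFAE+8+MSC and in CFAE+6, each against CFAE+8 (vertical axis, points ± SE), with clusters Hoxa to Hoxd from left to right. Filled symbols were called at an adjusted p under 0.05, and both comparisons share the CFAE+8 libraries. Hoxc13 is highest at 1.82 and 2.27, Hoxb9 lies at -0.35 and -0.37, and filled symbols above 0 are Hoxc genes.

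Genes that act on or with Hox genes were read from lists, whose counts stand beside 62.0% of all genes called in CFAE+8 against MEF, 29.3% in CFAE+8+MSC against CFAE+8 and 26.6% in CFAE+6 against CFAE+8. Of 15 upstream regulators, 10 were tested, and 6 were higher and 4 lower in CFAE+8 against MEF, with a median log2 fold change of 0.70 (all genes 0.01). The same list had 5 higher and 5 lower in CFAE+8+MSC against MEF (median 0.00016) and 5 higher and 4 lower in CFAE+6 against MEF (median 0.31). Rarb, the retinoic acid receptor beta and itself a retinoid target, was at 51.7 ± 7.15 CPM in CFAE+8 against 0.599 ± 0.578 in MEF (6.41 ± 0.22, adjusted p = 1.4e-20). Cyp26b1, an enzyme that breaks down retinoic acid, was at 402 ± 7.67 CPM in CFAE+8 against 32.3 ± 4.86 in MEF (3.64 ± 0.07, adjusted p = 1.3e-27). The Cdx genes, which drive posterior Hox genes in the embryo, were at 0 to 0.302 CPM in all media. In CFAE+8+MSC against CFAE+8 the list had 2 higher and 5 lower, with Rarg, the retinoic acid receptor gamma, at -1.03 ± 0.05 (adjusted p = 2.6e-15). In CFAE+6 against CFAE+8 it had 3 higher and 2 lower, with Rarg at -0.73 ± 0.05.

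Of 30 Polycomb genes, 17 were higher and 7 lower in CFAE+8 against MEF (median 0.40), 16 and 8 in CFAE+8+MSC against MEF (0.24), 16 and 7 in CFAE+6 against MEF (0.27), 2 and 8 in CFAE+8+MSC against CFAE+8, and 2 and 7 in CFAE+6 against CFAE+8. Jarid2, an accessory subunit of PRC2, was at 385 ± 3.66 CPM in CFAE+8 against 19.9 ± 0.452 in MEF (4.27 ± 0.06, adjusted p = 7.0e-30). Ezh2, the methyltransferase of PRC2, was at 82.3 ± 3.54 against 25.7 ± 3.24 CPM (1.68 ± 0.08), and Cbx7, a reader of its mark, fell (-1.27 ± 0.28, adjusted p = 2.2e-04). Of 17 MLL and DOT1L genes, 13 were higher and 1 lower in CFAE+8 against MEF (median 0.43), 11 and 1 in CFAE+8+MSC against MEF (0.35), 12 and 4 in CFAE+6 against MEF (0.40), 2 and 2 in CFAE+8+MSC against CFAE+8, and 1 and 5 in CFAE+6 against CFAE+8. Dot1l itself was at 149 ± 6.998 CPM in CFAE+8 against 105 ± 0.908 in MEF (0.51 ± 0.06, adjusted p = 7.7e-09). Mllt3, a partner of DOT1L, was at 88.9 ± 5.73 against 31.2 ± 1.83 CPM (1.51 ± 0.07). Of 9 TALE cofactors, which bind DNA beside Hox proteins, 3 were higher and 4 lower in CFAE+8 against MEF (median -0.08), 3 and 5 in CFAE+8+MSC against MEF (-0.29), 3 and 3 in CFAE+6 against MEF (-0.22), 1 and 3 in CFAE+8+MSC against CFAE+8, and 1 and 3 in CFAE+6 against CFAE+8. Meis2 was higher in CFAE+8 against MEF (1.34 ± 0.06, adjusted p = 1.5e-17) and lower in CFAE+8+MSC against CFAE+8 (-0.46 ± 0.06).

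Neighbours of the clusters and their noncoding RNAs show what lay around the Hox genes. Of 18 flanking genes, 15 were tested, with 6 higher and 5 lower in CFAE+8 against MEF (median 0.07), 6 and 7 in CFAE+8+MSC against MEF (-0.17), 6 and 7 in CFAE+6 against MEF (-0.15), 3 and 4 in CFAE+8+MSC against CFAE+8, and 2 and 3 in CFAE+6 against CFAE+8. Evx1, the homeobox gene beyond Hoxa13, had 14.8 ± 0.828 CPM in CFAE+8+MSC, against 4.38 ± 0.0801 CPM in CFAE+8 (1.75 ± 0.20, adjusted p = 7.3e-08), and 0 counts in MEF. Skap2, which flanks the anterior side of Hoxa, was at 13.7 ± 1.14 CPM in CFAE+8+MSC and 14.2 ± 1.09 in CFAE+6, against 34.7 ± 4.17 in CFAE+8, with 48.9 ± 0.839 in MEF (-1.34 ± 0.12 in CFAE+8+MSC against CFAE+8). Of 16 noncoding RNAs of the clusters, 9 were tested, and Haglr and Hoxb3os were higher in CFAE+8 against MEF (2.33 ± 0.70 and 1.01 ± 0.39, adjusted p = 0.0049 and 0.027) while the other 7 were not called. Haglr lies beside Hoxd1 and Hoxd3 and averaged 1.41 ± 0.668 CPM in CFAE+8, against 0.282 ± 0.139 in MEF.

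Marker genes were read for the cell type in the label. All 12 fibroblast markers were present in every medium. Of all genes tested, 30.8% were higher and 31.3% lower in CFAE+8 against MEF, and of these markers 4 were higher and 8 lower. Their summed level was 15154 to 15582 CPM in CFAE+8+MSC, 13930 to 14457 in CFAE+6 and 14780 to 14845 in CFAE+8, against 36055 to 37025 in MEF. Such a sum follows the most abundant markers and hides the 4 that rose, so it is not a measure of fibroblast content. The 8 macrophage markers, none at 0, summed to 19.2 to 20.5 CPM in CFAE+8+MSC, 16.9 to 21.1 in CFAE+6 and 34.5 to 35.1 in CFAE+8, against 184 to 186 in MEF. The 6 epithelial markers, none at 0, summed to 40.9 to 44.9, 37.1 to 37.5 and 10.8 to 11.5 CPM in CFAE+8+MSC, CFAE+6 and CFAE+8, against 19.3 to 22.7 in MEF. The 6 endothelial markers summed to 52.1 to 54.3, 54.95 to 60.9 and 25.0 to 27.1 CPM, against 18.8 to 19.1 in MEF, with Tie1 at 0 in all but CFAE+6 and Emcn at 0 in CFAE+8+MSC and CFAE+6. The 6 neuronal markers summed to 120 to 132, 112 to 118 and 104 to 107 CPM, against 65.6 to 71.0 in MEF, where Snap25 was at 0. The 6 skeletal muscle markers summed to 73.4 to 77.2, 57.0 to 57.9 and 37.5 to 40.4 CPM, against 100 to 110 in MEF, with none at 0. The 6 neural crest and glia markers summed to 35.4 to 36.5, 33.9 to 34.8 and 14.3 to 15.5 CPM, against 16.9 to 17.4 in MEF, where Tfap2b was at 0. The part of these cells, and of the difference in mitochondrial share, in the Hox changes was not tested.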

How the data were processed

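Per the labels' protocols, RNA came from an EasyPure kit, and the library kit (NEBNext Ultra RNA) does not mark strand. The authors deposited raw counts per gene for each library. Processing notes of the submitters name featureCounts, Subread, DESeq2 and mm10 without versions; aligner, annotation and strand setting were not given in the sources used here. Groups came from sample titles. The fit used edgeR 4.0.16 (R 4.3.3): filterByExpr kept 15470 of 28024 genes with any count and 99.9% of counts, TMM scaled libraries, and 1 mean per group was fitted to all 8 libraries (4 residual degrees of freedom, common biological coefficient of variation 0.0445). RPKM used the deposited gene length. The SE is the coefficient over the square root of F. Scripts were tested on simulated data. Exon overlap was read from GENCODE M21, where 39 of 40 Hox genes were found and 38 had the same ends; promoters came from RefSeq.

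The members, lists and comparisons were chosen with earlier results of these data known. Values in every library were given for the 6 largest rises and falls in CFAE+8 against MEF among called genes of at least 5 CPM in 1 group, for up to 4 called genes each way by smallest adjusted p in CFAE+8+MSC and CFAE+6 against CFAE+8, and for the highest gene per cluster; Hoxc13 and the other genes with values were added outside that rule. Lists were TALE cofactors, Polycomb, MLL and DOT1L, upstream regulators, neighbours, noncoding RNAs, and markers of fibroblasts, macrophages, epithelium, endothelium, neurons, skeletal muscle, and neural crest and glia. Replicates of a medium differed by more than counting noise, and none were merged. Some genes of the clusters and lists entered the counts, sums and fits but are not reported here by name or drawn.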

Additional observations from a re-analysis of the deposited data

How the results depend on the processing

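The 25 changes followed (22 by the rule and 3 of Hoxc13) kept their direction under every alternative run, and all 25 were still called under DESeq2 size factors, upper-quartile scaling, no filter, a filter of at least 1 CPM in 2 libraries and fits of only the groups compared; 24 were called in DESeq2's own test and 20 against a 1.2-fold change. With 2 libraries a group, a group with 1 left out is assumed to vary like the others. Counts of called Hox genes that moved by more than 1.5 times were as follows, and the cause was not tested except where fewer genes entered. In CFAE+8+MSC against MEF, DESeq2 called 8 lower and not 13. In CFAE+8+MSC against CFAE+8, the 1.2-fold test called 1 higher and 5 lower and not 3 and 8, and 5 were lower when genes with more than 10% of exon length overlapped were left out (an alternative added after seeing the data). In CFAE+6 against CFAE+8, 4 were lower in DESeq2 and 3 in the 1.2-fold test and not 9. In CFAE+8+MSC against CFAE+6, 1 was higher in DESeq2 and 0 in the 1.2-fold test and not 2. Leaving out 1 library at a time gave 8 to 9 higher and 7 to 11 lower in CFAE+8 against MEF, 6 to 7 and 8 to 12 in CFAE+8+MSC against MEF, 5 to 8 and 13 to 17 in CFAE+6 against MEF, 1 to 4 and 5 to 8 in CFAE+8+MSC against CFAE+8, 1 and 5 to 9 in CFAE+6 against CFAE+8, and 1 to 2 and 0 in CFAE+8+MSC against CFAE+6. Same-numbered libraries showed no strong shared deviation (correlations of replicate differences over genes of -0.02 to 0.05). Counting noise lowers such correlations, so they cannot show whether the numbers pair the libraries. With the replicate number as a block, 9 Hox genes were higher and 10 lower in CFAE+8 against MEF, 3 and 8 in CFAE+8+MSC against CFAE+8 and 1 and 9 in CFAE+6 against CFAE+8, and none of the 25 changes lost its call. Depth limits the 8 untested genes and those under about 5 CPM, whose intervals span 1 or more on the log2 scale.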

Other observations

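The Hoxc to Hoxa ratio of summed CPM was 4.14 and 3.88 in CFAE+8+MSC, 3.05 and 3.20 in CFAE+6 and 2.68 and 2.84 in CFAE+8, against 1.44 and 1.60 in MEF, with no overlap between media. On the TMM-corrected CPM scale, summed Hox levels came to 0.0591% in CFAE+8+MSC, 0.0558% in CFAE+6, 0.0654% in CFAE+8 and 0.0567% in MEF. In raw counts, Hox genes held 6268 of 11036764 and 6579 of 11380982 in CFAE+6, against 5837 of 11355164 and 6326 of 11913143 in MEF. Without the TMM correction, the share in CFAE+6 was thus above that in MEF.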
